A study of Mus musculus with 9 samples.

Results

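The IL-6 family genes described here are the cytokine genes Il6, Osm and Lif and the receptor genes Il6st and Il6ra, followed through 9 bulk RNA sequencing libraries of mouse basophil preparations. These 5 genes were chosen by symbol from 35673 genes in the table, and all 5 were among the 21341 genes abundant enough to test. Bone marrow of C57BL/6J WT mice was cultured for 7 days with IL-3 at 0.3 ng/mL, and CD49b+ cells were then sorted magnetically. Each library came from 10000 cells held for 4 hours. The difamilast group received IL-3 and IL-33, both at 10 ng/mL, with 3 µM difamilast. The stimulated group received the same cytokines with the vehicle DMSO, and the resting group received PBS with DMSO. All groups share the strain, the IL-3 culture and the sort, and the label of the difamilast group names no vehicle. Each group had 3 libraries. Whether the replicates are separate mice or cultures is not in the labels, and the p-values then cover the spread of these libraries alone, which may be technical. No library of resting cells with difamilast was analysed here.

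Most cytokines of the IL-6 family signal through gp130, the shared receptor chain encoded by Il6st. IL-6 first binds the chain encoded by Il6ra, on the cell surface or in a shed soluble form. LIF pairs gp130 with the LIF receptor, and mouse oncostatin M, the product of Osm, pairs it mainly with the oncostatin M receptor. The paired chains activate JAK kinases and STAT3, which induces the feedback inhibitor SOCS3. Basophils are rare granulocytes that secrete IL-4, IL-13 and IL-6 when activated, and IL-33 is an alarmin that activates them through the receptor ST2. Difamilast inhibits phosphodiesterase 4, which degrades the second messenger cyclic AMP in immune cells.

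Il6 lies on the plus strand of chromosome 5 from 30013114 to 30019981, in the GRCm38 build with GENCODE vM21 annotation. Osm (chromosome 11, 4236420 to 4241026) and Lif (chromosome 11, 4257557 to 4272514) are neighbours on the plus strand, 16530 bases apart, with no annotated gene between them. Il6st is on the plus strand of chromosome 13 from 112464070 to 112510086, and Il6ra is on the minus strand of chromosome 3 from 89864059 to 89913196. Il6ra shares 242 exonic bases with Gm42809 on the opposite strand, which had 0 to 5 counts per library.

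The sequences upstream of Il6 and Lif are shown because both genes moved with stimulation. Both also match the NF-kB pattern searched, GGGANNNTC, at nearly the same distance from the RefSeq start. They are RefSeq sequences of GRCm38.p6 on the plus strand, the 250 bases before the RefSeq start site, at chr5:30012864-30013113 for Il6 and chr11:4257318-4257567 for Lif. For Lif this stretch runs past the GENCODE start at 4257557, so its distances would be shorter from that start. Capitals mark matches to the motifs searched.
Il6: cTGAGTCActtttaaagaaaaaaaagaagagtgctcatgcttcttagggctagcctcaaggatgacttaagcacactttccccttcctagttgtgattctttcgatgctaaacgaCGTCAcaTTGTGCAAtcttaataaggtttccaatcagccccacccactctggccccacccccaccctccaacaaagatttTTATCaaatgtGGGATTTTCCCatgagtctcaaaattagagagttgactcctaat
Lif: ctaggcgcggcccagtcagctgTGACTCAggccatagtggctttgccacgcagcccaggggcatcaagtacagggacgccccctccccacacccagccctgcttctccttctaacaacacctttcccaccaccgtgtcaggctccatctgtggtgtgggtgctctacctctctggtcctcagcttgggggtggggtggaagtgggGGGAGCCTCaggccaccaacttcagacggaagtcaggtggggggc

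Motifs were searched on both strands of RefSeq windows of 300 bases, which matched 4 of the 5 genes by symbol: Il6, Lif, Il6st and Il6ra. Distances are counted from the RefSeq start. The NF-kB motif GGGANNNTC stood 44 bases before the Il6 start, where it overlaps a match on the other strand at 42 bases, and 45 bases before the Lif start. It occurs in 14.5% of the 32851 windows in the table. The match is followed by CC in Il6 and by ag in Lif, so these stretches are alike only in the letters searched. The AP-1 motif TGANTCA, in 7.81% of windows, stood 249 bases before the Il6 start and 228 bases before the Lif start. Il6 also held the C/EBP motif TTGCNNAA (10.8% of windows) at 128 bases, the GATA motif GATAA (25.4%) at 55 bases and the CREB half-site TGACG (20.8%) at 135 bases, as cgtca on this strand. Il6ra held a CREB half-site at 236 bases and a GATA motif at 245 bases, and Il6st held none of these motifs. The full CREB site TGACGTCA (1.79% of windows) and the STAT motif TTCNNNGAA (8.3%) were in none of the 4 windows. These matches are letters in a window, not shown sites of binding.

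The cytokine mRNAs carry AU-rich ATTTA repeats in the 3′ UTR, which in many cytokine mRNAs bind proteins that speed or slow decay. The longer form TATTTAT is the core recognised by the ZFP36 family of decay proteins. A 30-base stretch with TATTTAT in capitals is shown for each cytokine gene, because genes of the factors that bind it are among the results, counted from the first base after the stop codon, at 180 to 209 in Il6, 576 to 605 in Osm and 1135 to 1164 in Lif.
Il6: tttatgattgaTATTTATtatttttatgaa
Osm: gcaagacacttTATTTATccgaatgtcagc
Lif: gcacagctgtcTATTTATtactatgtccta

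Il6 held 6 ATTTA in a 3′ UTR of 427 bases, or 14.1 per kb, and 0.258% of 17046 annotated 3′ UTRs had as many or more per kb. Osm held 6 in 1017 bases, or 5.90 per kb, reached by 4.63% of 3′ UTRs. Lif held 7 in 3180 bases, or 2.20 per kb, reached by 33.7%, and the median over all 3′ UTRs was 1.37 per kb. Of the receptor mRNAs, Il6st held 9 in 5641 bases, or 1.60 per kb, reached by 45.1% of 3′ UTRs. Il6ra held 1 in 1837 bases, or 0.544 per kb, reached by 66.4%. TATTTAT, present in 29.6% of 3′ UTRs, was found 1 time in Il6, 3 times in Osm and 5 times in Lif, and in neither receptor mRNA.

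Levels are given in CPM, counts scaled to library totals after TMM normalisation, which adjusts each library total so that a few very abundant genes do not set the scale. Depth ranged from 6261446 to 38098584 counts per library, and the resting libraries were the shallowest on average. All 10 basophil markers listed were detected in every group, and their summed level was 9343 to 9654 CPM in difamilast, 9815 to 10421 CPM in stimulated and 4466 to 6083 CPM in resting libraries. The 14 monocyte and macrophage markers summed to 4583 to 4976 CPM in difamilast, 4777 to 5063 CPM in stimulated and 6137 to 7657 CPM in resting libraries, with none at 0 throughout a group. The 8 mast cell markers found in the table summed to 883 to 891 CPM in difamilast, 1214 to 1253 CPM in stimulated and 616 to 876 CPM in resting libraries, with Mrgprb2 at 0 in every stimulated library. Dendritic cell markers, 10 in number, summed to 1892 to 2011 CPM in difamilast and 1716 to 1824 CPM in stimulated libraries. In resting libraries their sum was 1559 to 1943 CPM, with Cd209a at 0. The monocyte and macrophage sum exceeded the basophil sum in the resting libraries only. In bulk RNA, fewer cells of a type and less RNA per cell cannot be told apart. The part that other cell types play in the values below was not tested.

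Il6 was among the most abundant mRNAs of cells given IL-3 and IL-33. Its level was 3979, 3713 and 4238 CPM in the difamilast libraries, 5953, 6147 and 6271 CPM in the stimulated libraries, and 291, 342 and 328 CPM in the resting libraries. The means were 3977 ± 263 CPM, 6124 ± 160.0 CPM and 321 ± 26.7 CPM in difamilast, stimulated and resting libraries (SD, n = 3 each). The groups did not overlap, and the stimulated libraries were the highest. By mean CPM it ranked 22nd in difamilast, 14th in stimulated and 288th in resting libraries among all genes in the table. It took 0.354% of the counts in difamilast, 0.540% in stimulated and 0.0406% in resting libraries.

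Osm had its highest level in another group. The difamilast libraries had 2689, 2506 and 2111 CPM, the stimulated libraries 1320, 1346 and 1512 CPM, and the resting libraries 292, 287 and 275 CPM. The means were 2435 ± 295 CPM in difamilast, 1393 ± 104 CPM in stimulated and 285 ± 8.36 CPM in resting libraries (SD, n = 3 each). Every difamilast library lay above every stimulated library, and every stimulated library above every resting one. Osm took 0.218% of the counts in difamilast, 0.123% in stimulated and 0.0362% in resting libraries, and ranked 42nd in difamilast, 68th in stimulated and 344th in resting libraries.

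Lif was a minor transcript beside its neighbour. It had 20.5, 17.1 and 22.5 CPM in difamilast, 24.6, 25.2 and 22.6 CPM in stimulated and 5.24, 4.40 and 3.80 CPM in resting libraries. Its means were 20.01 ± 2.71 CPM in difamilast, 24.1 ± 1.38 CPM in stimulated and 4.48 ± 0.726 CPM in resting libraries. The highest difamilast library was just below the lowest stimulated library, and all 6 libraries with IL-3 and IL-33 were well above the resting ones.

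The receptor genes varied much less. Il6st had 31.0, 31.9 and 33.2 CPM in difamilast, 35.3, 31.0 and 38.3 CPM in stimulated and 29.7, 19.8 and 22.04 CPM in resting libraries. Its means were 32.0 ± 1.09 CPM in difamilast, 34.9 ± 3.66 CPM in stimulated and 23.9 ± 5.20 CPM in resting libraries. The difamilast and stimulated libraries overlapped, and resting replicate 1 came close to both. Il6ra had 22.2, 21.3 and 25.6 CPM in difamilast, 36.0, 35.2 and 29.1 CPM in stimulated and 36.4, 34.6 and 31.7 CPM in resting libraries. Its means were 23.0 ± 2.28 CPM in difamilast, 33.4 ± 3.75 CPM in stimulated and 34.2 ± 2.404 CPM in resting libraries. Here the stimulated and resting libraries overlapped and all 3 difamilast libraries were the lowest.

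**Figure D1:**
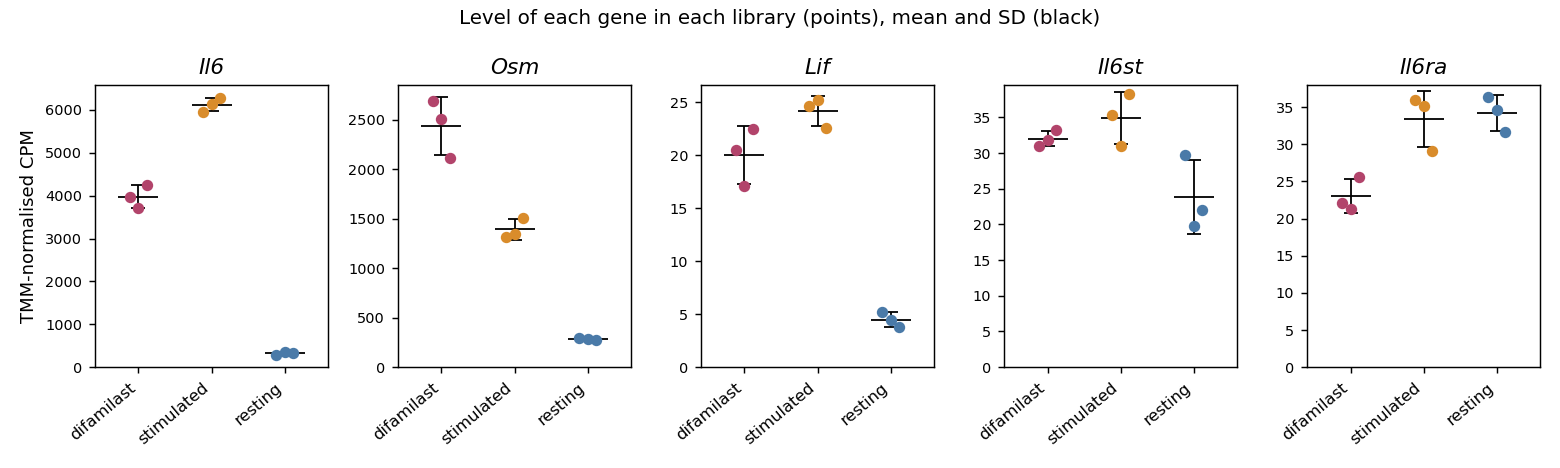
Level of each gene in every library (points; TMM-normalised CPM on a linear axis that starts at 0 and differs between genes), with the mean and SD of the 3 libraries of each group in black. Il6 is highest in the stimulated libraries (5953 to 6271 CPM) and Osm in the difamilast libraries (2111 to 2689 CPM), while Il6ra is lowest in the difamilast libraries.

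Divided by the length of the main annotated transcript, levels can be set beside each other if reads cover transcripts evenly, which was not checked. In plain CPM, Il6st averaged above Lif in every group. It also averaged above Il6ra in difamilast (32.0 against 23.0) and stimulated libraries (34.9 against 33.4). In CPM per kb, Il6 averaged 3485 in difamilast, 5367 in stimulated and 281 in resting libraries, and Osm averaged 1072 in difamilast, 613 in stimulated and 125 in resting libraries. Lif was at 4.97 CPM per kb in difamilast, 6.00 in stimulated and 1.11 in resting libraries. Il6ra averaged 6.89 in difamilast, 10.0 in stimulated and 10.2 in resting libraries, and Il6st 3.69 in difamilast, 4.02 in stimulated and 2.75 in resting libraries. The order in every group was Il6, Osm, Il6ra, and then Lif and Il6st, with Lif above Il6st in difamilast and stimulated libraries and below it in resting ones. Within a group, the libraries of genes next to each other in this order did not overlap.

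Stimulated and resting cells, both in vehicle, differ by the cytokines IL-3 and IL-33. Il6 rose 19.1-fold, a log2 change of 4.26 ± 0.12 (SE; Benjamini-Hochberg adjusted p = 6.6e-12, edgeR's quasi-likelihood test). Osm rose 4.89-fold (log2 2.29 ± 0.11; adjusted p = 7.82e-10 by the same edgeR test) and Lif 5.31-fold (log2 2.41 ± 0.17; adjusted p = 4.34e-08). The Il6 change was the 4th highest of 8867 genes averaging at least 10 CPM, and those of Osm and Lif were the 196th and the 176th.

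Among the receptor chains, Il6st rose 1.46-fold (log2 0.55 ± 0.15; edgeR adjusted p = 0.0125). That call was lost without resting replicate 2 (log2 0.38, adjusted p = 0.0888) or 3 (0.46, adjusted p = 0.0619) and without stimulated replicate 1 (0.50, adjusted p = 0.0586) or 3 (0.47, adjusted p = 0.0634). Il6ra differed by -0.04 ± 0.13 on the log2 scale, with a 95% interval of -0.32 to 0.24 (edgeR adjusted p = 0.852). So 4 of the 5 genes passed the threshold of an adjusted p of 0.05, all higher in stimulated cells, where 31.7% of all tested genes passed it in either direction and 15.3% were higher. The groups did not overlap for 4 of the 5, against 43.7% of tested genes (23.2% higher and 20.6% lower). The receptor results depended on the TMM factors, 0.871 to 0.892 in stimulated and 1.23 to 1.32 in resting libraries. As a share of all counts, Il6st was at 0.00307% in stimulated and 0.00304% in resting libraries. Il6ra was at 0.00295% in stimulated and 0.00435% in resting libraries.

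The comparison of difamilast with stimulated cells asks what the inhibitor did while the cytokines were present. It uses the same stimulated libraries as the one before it. Il6 fell 1.54-fold (log2 -0.62 ± 0.10; edgeR adjusted p = 0.00174). Osm rose 1.75-fold (log2 0.81 ± 0.11; edgeR adjusted p = 0.000365), the opposite direction. Il6ra fell 1.45-fold (log2 -0.54 ± 0.13; edgeR adjusted p = 0.0326).

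The other genes did not pass. Lif differed by -0.27 ± 0.15 on the log2 scale, with a 95% interval of -0.59 to 0.05 (edgeR adjusted p = 0.439), although its groups did not overlap. Il6st differed by -0.12 ± 0.15, with an interval of -0.44 to 0.19 (edgeR adjusted p = 0.78). In all, 3 of the 5 genes were called, 1 higher and 2 lower, beside 3.44% of all tested genes called in either direction, 2.21% higher and 1.24% lower. The groups did not overlap for 4 of the 5, beside 24.8% of tested genes (12.2% higher and 12.6% lower). Among the 8867 genes averaging at least 10 CPM, the Osm change was the 164th from the top, and those of Il6 and Il6ra were the 222nd and the 375th from the bottom.

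The Il6ra call was the least firm of these. It was lost without stimulated replicate 1 (adjusted p = 0.186) or 2 (0.189) and without difamilast replicate 1 (0.178) or 2 (0.204), with log2 changes of -0.50 to -0.48 (edgeR). Of the 14 monocyte and macrophage markers, 0 were called by edgeR between difamilast and stimulated cells, 2 had an unadjusted p under 0.05, and DESeq2 also called 0. Among 7 tested mast cell markers, 2 fell, Tpsab1 (log2 -1.75) and Slc6a4 (-1.31), and of 10 basophil markers 1 fell, Ms4a2 (-0.81), beside 1.24% of all tested genes. Of 10 neutrophil markers 1 fell, Cxcr2 (-0.71), and their sum was 157 to 213 CPM in difamilast, 219 to 233 CPM in stimulated and 208 to 235 CPM in resting libraries. Of 9 tested dendritic cell markers 1 rose, Ccr7 (0.95), beside 2.21% of all tested genes. The Tpsab1 call was lost without stimulated replicate 1 or 2 or difamilast replicate 2 (edgeR adjusted p up to 0.145).

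Set against resting cells, difamilast left all 3 cytokine genes raised. Il6 was 12.4-fold higher in difamilast than in resting cells (log2 3.63 ± 0.11; edgeR adjusted p = 1.16e-11), Osm 8.55-fold higher (log2 3.10 ± 0.12; adjusted p = 4.66e-11) and Lif 4.40-fold higher (log2 2.14 ± 0.17; adjusted p = 1.53e-07). Il6ra fell 1.49-fold (log2 -0.58 ± 0.13; edgeR adjusted p = 0.00349). Il6st rose 1.34-fold (log2 0.42 ± 0.15; edgeR adjusted p = 0.0439), a call kept in 4 of 16 alternatives and lost without any single library other than resting replicate 1 (adjusted p up to 0.253). All 5 genes were called, 4 higher and 1 lower, beside 32.8% of all tested genes called in either direction and 16.4% in each direction, and none of the 5 overlapped between groups, beside 42.9% of tested genes (23% higher and 19.8% lower). As a share of all counts, Il6st was lower in difamilast (0.00285%) than in resting libraries (0.00304%), so its rise depended on the TMM factors. This comparison shares its libraries with both others.

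**Figure D2:**
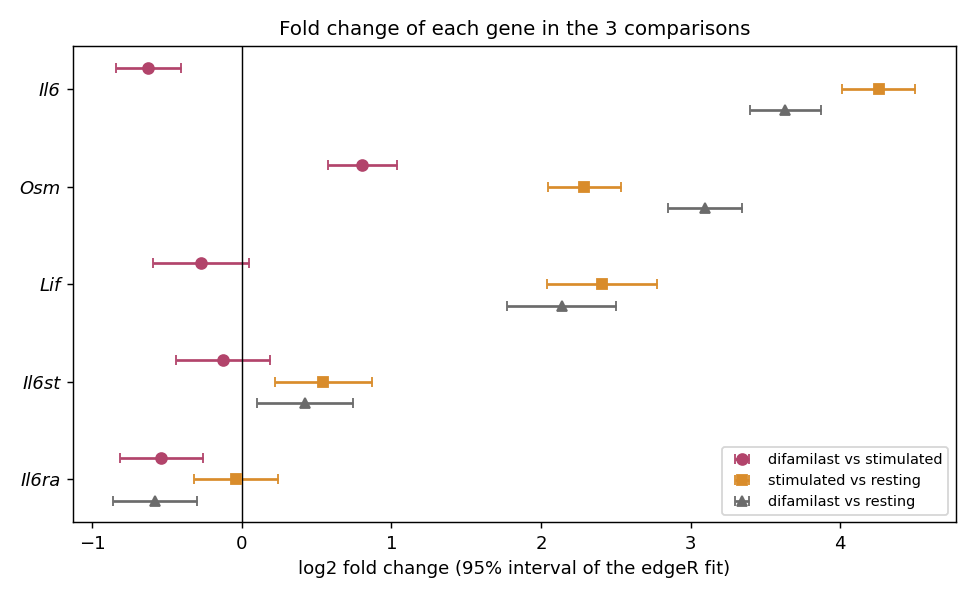
Log2 fold change of each gene with its 95% interval in the 3 comparisons (edgeR fit of 9 libraries, 3 per group). Il6 and Osm move the same way with stimulation (4.26 and 2.29) and opposite ways with difamilast (-0.62 and 0.81).

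In CPM, the difamilast libraries held 63.0% ± 4.52 (SD, n = 3) of the Il6 difference between stimulated and resting means. The same share was 79.0% ± 13.8 for Lif and 194% ± 26.7 for Osm. These SDs are over the difamilast libraries only, with the other means held fixed.

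Ratios within a library do not depend on its depth, though their size per length assumes even coverage of transcripts. Per length, Il6 exceeded Osm 3.30-fold ± 0.606 in difamilast, 8.78-fold ± 0.453 in stimulated and 2.24-fold ± 0.223 in resting libraries (SD, n = 3 each). The single libraries were at 2.95, 2.95 and 4.00 in difamilast, 8.98, 9.09 and 8.26 in stimulated and 1.99, 2.37 and 2.37 in resting cells. The difamilast and stimulated groups did not overlap, nor did the difamilast and resting groups. The log2 ratio was lower by 1.43 in difamilast than in stimulated libraries, and higher by 1.97 in stimulated than in resting libraries (p = 0.1 for each, exact permutation, two-sided, where 3 against 3 libraries allow no smaller p; 0.133 after Benjamini-Hochberg adjustment over the 8 ratio tests).

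Osm over Lif, the ratio of the neighbouring genes, was 220 ± 48.0 in difamilast, 103 ± 13.8 in stimulated and 114 ± 15.04 in resting libraries. On the log2 scale it was 1.08 higher in difamilast than in stimulated libraries (exact permutation p = 0.1) and differed by -0.14 between stimulated and resting libraries (exact permutation p = 0.3). Il6 over Lif was 706 ± 53.1 in difamilast, 898 ± 71.4 in stimulated and 258 ± 56.4 in resting libraries, with log2 differences of -0.35 between difamilast and stimulated and 1.83 between stimulated and resting libraries (exact permutation p = 0.1 for each). Il6st over Il6ra was 0.538 ± 0.0384 in difamilast, 0.408 ± 0.0876 in stimulated and 0.268 ± 0.0467 in resting libraries, and its difamilast and stimulated libraries overlapped. Its log2 difference was 0.42 between difamilast and stimulated (exact permutation p = 0.2) and 0.60 between stimulated and resting libraries (exact permutation p = 0.1).

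**Figure D3:**
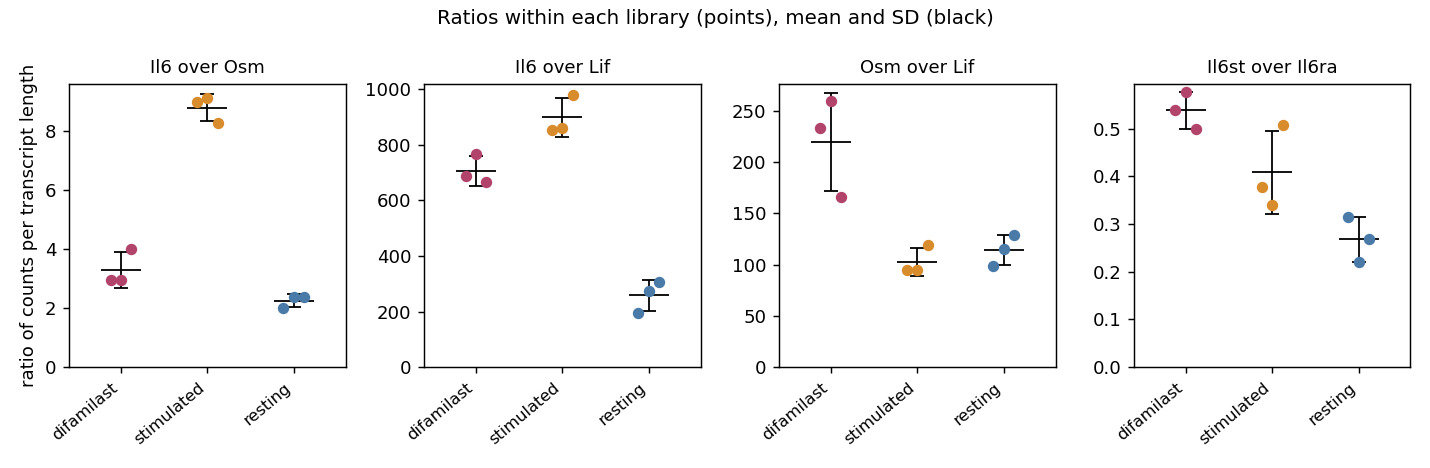
Ratio of counts per transcript length between family genes within each library (points; linear axes that start at 0), with the mean and SD of each group in black (n = 3 libraries). Il6 over Osm is 8.78 in stimulated libraries and 3.30 in difamilast libraries, and Osm over Lif is 220 in difamilast and 103 in stimulated libraries.

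The 5 other tested genes within 100 kb of Osm and Lif were Rnf215, Ccdc157, Sf3a1, Tbc1d10a and Castor1. Their log2 changes over the 3 comparisons ran from -0.40 to 0.33, with adjusted p-values of 0.0617 or more in edgeR's test.

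The rest of the family was measured at low levels. Of 6 other family ligands tested, 2 rose and 1 fell with stimulation, beside 15.3% of all tested genes higher and 16.4% lower, with a median log2 change of 0.04 beside 0.06 over all tested genes. Ebi3, the shared subunit of IL-27 and IL-35, averaged 15.2 ± 2.03 CPM in difamilast, 27.1 ± 0.470 CPM in stimulated and 7.70 ± 2.94 CPM in resting libraries. It rose with stimulation (log2 1.86 ± 0.21; edgeR adjusted p = 7.68e-06) and fell with difamilast (log2 -0.83 ± 0.20; edgeR adjusted p = 0.0262). The fall was not called when stimulated replicate 1, 2 or 3 or difamilast replicate 1 or 2 was left out (adjusted p up to 0.177). Cntf, a neurotrophic cytokine, rose with stimulation (log2 1.58 ± 0.41; edgeR adjusted p = 0.00834), at 1.31, 1.88 and 0.555 CPM in difamilast, stimulated and resting libraries. Il11 fell with stimulation (log2 -1.54 ± 0.34; edgeR adjusted p = 0.00258) at 2.61 CPM in difamilast, 1.502 CPM in stimulated and 4.36 CPM in resting libraries. Clcf1, Ctf2 and Il27 were not called in any comparison, and Ctf1 and Il31 were too low to test.

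The receptor chain genes Lifr and Osmr were measured at low levels. Lifr, which pairs with gp130 to bind LIF, averaged 4.02 ± 0.830 CPM in difamilast, 3.46 ± 0.349 CPM in stimulated and 2.88 ± 0.641 CPM in resting libraries. Osmr, the oncostatin M receptor, averaged 1.27 ± 0.790 CPM in difamilast, 0.995 ± 0.322 CPM in stimulated and 0.657 ± 0.388 CPM in resting libraries. Neither was called in any comparison. Il31ra, which pairs with Osmr to bind IL-31, rose with stimulation (log2 2.71 ± 0.45; edgeR adjusted p = 0.000283), at 1.67 CPM in difamilast, 2.34 CPM in stimulated and 0.333 CPM in resting libraries. Il11ra1 fell with stimulation (log2 -0.98 ± 0.20; edgeR adjusted p = 0.00157), and Il27ra rose (log2 0.62 ± 0.21; edgeR adjusted p = 0.0371), a call kept in 7 of 16 alternatives and lost without resting replicate 2 or 3, stimulated replicate 1 or 3 or difamilast replicate 1 (adjusted p up to 0.215). Cntfr had 0 counts in the stimulated and resting libraries. Of 5 receptor chains tested, 0 were called by edgeR with difamilast against stimulated cells, 1 had an unadjusted p under 0.05 (Il27ra), and DESeq2 called 0. A fit of the 2 groups alone called Il27ra lower (edgeR adjusted p = 0.0465).

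**Figure D4:**
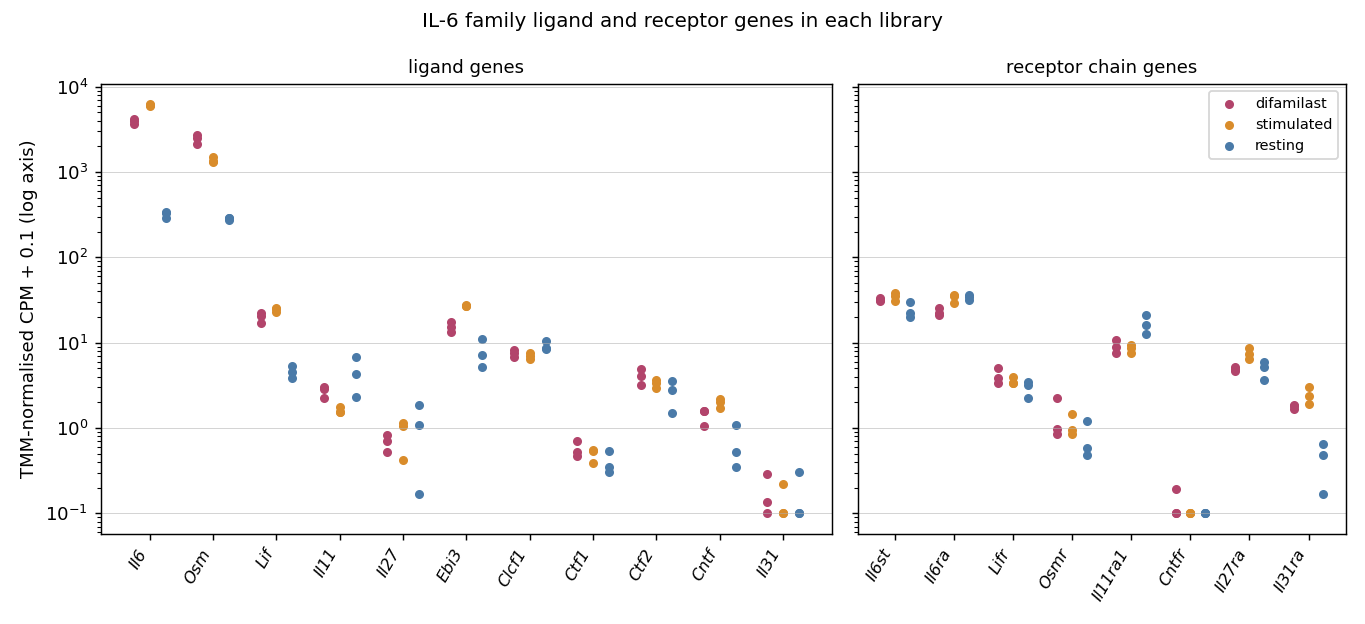
Level of the family's ligand genes and receptor chain genes in each library (points; TMM-normalised CPM plus 0.1 on a log axis), coloured by group, so that a library with no count sits at 0.1. Il6 and Osm stand far above the other family genes in all 3 groups, and Lifr and Osmr stay below 5 CPM on average.

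Genes that carry the gp130 signal rose with stimulation more often than they fell. Of 14 tested, 7 rose and 1 fell, with a median log2 change of 0.31 beside 0.06 over all tested genes, of which 15.3% rose and 16.4% fell. Socs3 had 2093 ± 299 CPM in difamilast, 1936 ± 32.7 CPM in stimulated and 172 ± 7.58 CPM in resting libraries, a log2 rise of 3.49 ± 0.12 with stimulation (edgeR adjusted p = 2.44e-11). Socs1, another JAK inhibitor, rose by 3.27 ± 0.13 (edgeR adjusted p = 6.54e-11), the kinase gene Jak2 by 2.48 ± 0.11 (edgeR adjusted p = 2.62e-10) and Erap1, whose product aids shedding of cytokine receptors, by 0.92 ± 0.11 (edgeR adjusted p = 1.3e-05). With difamilast 1 of 14 was called against stimulated cells, beside 3.44% of all tested genes. That gene was Stat3, at 165 ± 17.9 CPM in difamilast, 111 ± 7.62 CPM in stimulated and 103 ± 22.7 CPM in resting libraries (log2 0.58 ± 0.14; edgeR adjusted p = 0.032). The Stat3 call was lost without stimulated replicate 1, 2 or 3 or difamilast replicate 1 or 2 (adjusted p up to 0.190). Jak2 and Socs3 differed by -0.12 ± 0.11 and 0.11 ± 0.11 there. Socs1 and Socs3 are feedback genes that other cytokines, IL-3 among them, also induce.

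Genes that respond to STAT3 in other cells showed a mixed picture. Of 20 tested, 9 rose and 2 fell with stimulation, beside 15.3% of all tested genes higher and 16.4% lower (median log2 0.47 beside 0.06 over all tested genes). With difamilast 4 rose and 1 fell against stimulated cells, beside 2.21% of all tested genes higher and 1.24% lower (median 0.14 beside -0.0029). Beside Socs3, the largest calls with stimulation were Bcl3, an NF-kB cofactor (log2 2.77 ± 0.11; edgeR adjusted p = 6.71e-11), Icam1, an adhesion molecule (2.57 ± 0.11; 1.67e-10), and the kinase gene Pim1 (2.67 ± 0.12; 2.68e-10). With difamilast Fosl2 rose (1.52 ± 0.13; 5.11e-06), as did Vegfa (1.10 ± 0.12; 7.21e-05) and Tgm2 (1.16 ± 0.14; 0.000163). Icam1 fell to 160 ± 14.0 CPM in difamilast, against 354 ± 7.49 CPM in stimulated cells and 59.5 ± 5.93 CPM in resting cells (log2 -1.15 ± 0.11; edgeR adjusted p = 9.21e-06). The number called here was 8 with DESeq2, 8 with no filter on low counts, 8 with the length trend removed and 9 without difamilast replicate 3, beside 5 as reported.

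Most genes in a list drawn up for activators of Il6 transcription changed with stimulation. Of 16 tested, 10 rose and 4 fell, beside 15.3% of all tested genes higher and 16.4% lower (median log2 0.55 beside 0.06). Egr1 rose by 2.92 ± 0.11 (edgeR adjusted p = 5.29e-11), Nfkbiz by 2.47 ± 0.10 (9.7e-11), Nfkb1 by 2.44 ± 0.10 (1.46e-10) and Jund by 1.78 ± 0.10 (4.03e-09). With difamilast 4 rose against stimulated cells, beside 2.21% of all tested genes (median 0.24 beside -0.0029), and 10 of the 16 had an unadjusted p under 0.05. The called genes were Fos, at 83.6 ± 4.85 CPM in difamilast, 24.5 ± 5.46 CPM in stimulated and 107 ± 1.11 CPM in resting libraries (log2 1.76 ± 0.14; edgeR adjusted p = 3.15e-06), then Fosl2, Nfkb1 and Nfkbiz. Nfkb1 rose by 0.54 ± 0.10 (edgeR adjusted p = 0.0048), and was not called without stimulated replicate 1 or 2 (adjusted p up to 0.0542). Nfkbiz rose by 0.41 ± 0.10 (edgeR adjusted p = 0.0262) and was not called without stimulated replicate 1, 2 or 3 or difamilast replicate 1 or 2 (adjusted p up to 0.176). In a fit of the 2 groups alone, 7 of the 16 were called, 5 higher and 2 lower, the lower ones being Egr1 and Creb1. As reported, Egr1 differed by -0.33 ± 0.10 (edgeR adjusted p = 0.109) and Creb1 by -0.29 ± 0.10 (0.178). Egr1 was also called lower with DESeq2, with the length trend removed and without resting replicate 1. Fosl2, Cebpb, Cebpd and Junb also stand in the STAT3 list.

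A list drawn up for Il6 mRNA stability and decay was the last group. Of 11 tested, 6 rose and 2 fell with stimulation, beside 15.3% of all tested genes higher and 16.4% lower (median log2 0.37 beside 0.06). Zc3h12a, which encodes the ribonuclease Regnase-1 that cleaves Il6 mRNA, rose by 2.59 ± 0.12 (edgeR adjusted p = 3.89e-10), and Arid5a, which encodes a protein that stabilises Il6 mRNA, by 1.63 ± 0.12 (5.23e-08). Zfp36l2, a decay factor that binds AU-rich elements, fell (log2 -1.53 ± 0.11; edgeR adjusted p = 3.96e-08), and Tnip1 rose by 0.79 ± 0.11 (5.71e-05). Tnip1 is counted in this list although its product ABIN1 is known as an inhibitor of NF-kB signalling. With difamilast 2 rose and 1 fell against stimulated cells, beside 2.21% of all tested genes higher and 1.24% lower. Zfp36l2 fell further, to 67.2 ± 2.98 CPM in difamilast, against 108 ± 3.44 CPM in stimulated and 313 ± 39.4 CPM in resting cells (log2 -0.69 ± 0.11 between difamilast and stimulated; edgeR adjusted p = 0.00128). Its relatives Zfp36 (log2 0.49 ± 0.10; edgeR adjusted p = 0.00814) and Zfp36l1 (0.58 ± 0.12; 0.0137) rose. The Zfp36 call was lost without stimulated replicate 1 or difamilast replicate 1 or 2 (adjusted p up to 0.0718), and the Zfp36l1 call without stimulated replicate 1, 2 or 3 or difamilast replicate 2 (adjusted p up to 0.0910).

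Among 7830 candidate genes, those whose pattern over the 9 libraries was nearest to each family gene were found by the root mean square difference of centred log2 CPM. Nearest to Il6 were Mir155hg, the host transcript of miR-155 (difference 0.163, beside a spread of Il6 itself of 1.88), Aldh1a3, a retinoic acid-synthesising enzyme (0.181), and Serpina3g, a serine protease inhibitor (0.181). Mir155hg had 255 ± 36.7 CPM in difamilast, 395 ± 43.2 CPM in stimulated and 24.1 ± 3.33 CPM in resting libraries. Nearest to Osm were Tnfrsf9, the costimulatory receptor 4-1BB (0.103), Nlrp3, the inflammasome sensor (0.105), and Tgm1, a transglutaminase (0.123), beside a spread of 1.31. Tnfrsf9 had 1338 ± 145 CPM in difamilast, 831 ± 45.9 CPM in stimulated and 145 ± 4.83 CPM in resting libraries.

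Lif was nearest to Gvin1 (0.122), Zbp1 (0.125) and Cd55 (0.127), beside a spread of 1.09. Il6st, with a spread of only 0.291, was nearest to Slc9a8 (0.0838), Mapk6 (0.0846) and Ptpn23 (0.0890). Il6ra (spread 0.285) was nearest to Inpp4b (0.0790), Anxa4 (0.0991) and Tlr1 (0.109), and Anxa4 fell with difamilast by 0.59 ± 0.11 on the log2 scale (edgeR adjusted p = 0.00735), a call lost without stimulated replicate 1 or difamilast replicate 1 or 2 (adjusted p up to 0.0685). These likenesses are descriptions over 9 libraries of 3 groups and carry no test.

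**Figure D5:**
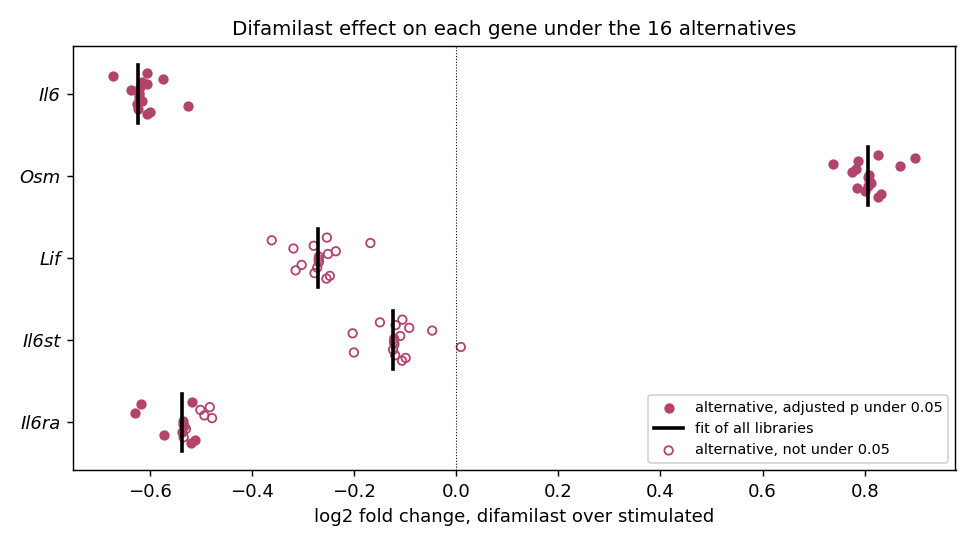
Log2 fold change of each gene between difamilast and stimulated cells under the 16 alternatives (filled points, adjusted p under 0.05; open points, not under it), with the fit of all libraries as a black bar. Il6 (-0.67 to -0.52) and Osm (0.74 to 0.90) stay on their own side of 0 with every point filled, Lif and Il6st have open points only, and Il6ra has both kinds.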

How the data were processed

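RNA was measured in 9 libraries of cells prepared as bone marrow-derived basophils. Per the labels' protocols, oligo-dT beads bound the polyA RNA, which was amplified over the whole transcriptome by the TAS-Seq workflow before fragmentation. No molecular identifiers are mentioned, so counts may include amplification copies, and intervals cover counting error and replicate spread only. The deposited values are raw counts per gene, whole numbers, per the file headers and the values. Per the submitters' processing notes, cutadapt 4.1, Bowtie2 2.4.5 and GRCm38 were used, with no role stated. How reads were counted, with which annotation and strand setting, is not given in the sources used here. Groups and replicate numbers come from sample titles.

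From the deposited counts, edgeR 4.0.16 (R 4.3.3) fitted 9 libraries in 1 model with 6 residual degrees of freedom, after TMM scaling and filterByExpr (minimum count 10, minimum total 15), with robust quasi-likelihood dispersion and no covariate. The common biological coefficient of variation was 0.156. Adjusted p-values are Benjamini-Hochberg over 21341 tested genes, with calls at 0.05. Lengths are those of the main annotated transcript of GENCODE vM21. Ratios were tested by exact permutation. Likeness used log2 CPM with a prior count of 2 over genes averaging at least 10 CPM, leaving out pseudogenes, predicted and ribosomal protein genes. From each gene list the text names up to 4 called genes of smallest p, or the 2 highest in level where fewer than 2 were called, and every other ligand and receptor chain counted. The alternatives were RLE scaling, no low-count filter, the replicate number as a block, removal of a length trend (lowess span 0.3), the compared groups alone, thinning to the shallowest library, DESeq2 1.42.0, and each library left out. The genes, lists and rules were chosen with earlier results of these data known. The counts of each list under these alternatives were added after the data were seen. Within groups, libraries differed by more than sampling noise (chi-square per degree of freedom 4.54 to 48.7). A gene of the ligand list as first drawn up is not reported here and is left out of its counts.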

Additional observations from a re-analysis of the deposited data

How the results depend on the processing

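The calls of Il6, Osm and Lif and their directions held under all 16 alternatives in all 3 comparisons. With difamilast against stimulated cells Il6 ran from -0.67 to -0.52 (adjusted p up to 0.0295 in edgeR and DESeq2), lowest in size with the length trend removed, Osm from 0.74 to 0.90 (adjusted p up to 0.00642) and Lif from -0.36 to -0.17, never called. The number of genes called in that comparison, 735, was 1351 with no filter on low counts, 1673 in a fit of only the 2 groups, 1115 with DESeq2 and 347 to 1693 with a library left out (lowest without difamilast replicate 2, highest without resting replicate 1). The Il6st change with stimulation ran from 0.38 to 0.71 with a library left out. The Il6ra change with stimulation was 0.0070 with the length trend removed, 0.078 after thinning and 0.057 without stimulated replicate 3 (-0.13 to 0.057 with a library left out), none of them called. Between difamilast and stimulated cells Il6st was 0.0095 after thinning, and the Il6ra call was lost with the replicate block (-0.53, adjusted p = 0.0536) and after thinning (-0.53, adjusted p = 0.0935), with -0.63 to -0.48 when a library was left out. Between difamilast and resting cells Il6st was not called with RLE scaling (0.39), the length trend removed (0.33), the 2 groups alone (0.43) or DESeq2 (0.39), and ran from 0.26 to 0.59 with a library left out. The causes were not tested. Same-numbered libraries deviated together in 1 of 9 pairs (correlation over 0.1, range -0.078 to 0.11), and differently numbered ones in 1 of 18 (-0.147 to 0.172). This cannot show whether the numbers pair the samples, since a small shared effect would look the same. Under the replicate block Il6 was -0.62 and Osm 0.80, and Nfkbiz was not called with difamilast against stimulated cells. All 8 ratio differences kept their direction in their 8 alternatives. No scaling moved the median of all genes by over 0.1. Each scaling used centres the typical gene, so this could not show a shift shared by most genes. Scaling to plain library totals was not among the alternatives. Low levels limit Osmr, Lifr, Cntf and Il31ra, where counting error is large.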
